A study of Mus musculus with 27 samples.

Results

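Acetylation of histone H3 at lysine 27 (H3K27ac) was mapped in wild-type (WT) mouse primary hepatocytes after hypoxia-reperfusion (HR) and in normoxia, and the deposited peak lists of both conditions were compared. The WT HR list held 8252 peaks and the WT normoxia list 5655, together 13907 of the 54935 peaks in the 8 CUT&RUN lists of the series. CUT&RUN uses an antibody to direct DNA cleavage to the sites its target occupies. Hepatocytes were isolated from WT mice and moved to normoxic or HR culture after 24 hours. Each condition was 1 library, and the sources used here give neither the number of animals behind a library nor the length of the hypoxic and reperfusion phases. The series holds 27 samples, 11 of them CUT&RUN. Other lists were used only for comparison: H3K9ac in WT HR and WT normoxia, FLAG-tagged ACLY in WT HR (how the tag entered these cells is not stated), and H3K27ac in HR hepatocytes of Alb-cre:Aclyf/f mice (KO). In the KO mice, Cre under the albumin promoter removes the floxed part of Acly in hepatocytes. With 1 library a condition, no difference below has a replicate check, no test was possible, and the 95% Wilson intervals cover counting error only.

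H3K27ac marks active promoters and enhancers. It is placed by the acetyltransferases p300 and CBP with acetyl-CoA as the donor, is read by bromodomain proteins and is removed by histone deacetylases. ATP citrate lyase (ACLY), the enzyme the study is about, makes acetyl-CoA from citrate outside mitochondria. Genes that define a cell type often carry broad H3K27ac domains, whereas housekeeping genes usually carry narrower peaks over CpG-rich promoters.

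Both lists had the gene pattern of hepatocytes. A gene was counted as marked where a peak lay within 1 kb of its start. Of 20 hepatocyte markers, 16 were marked in HR and 14 in normoxia; Asgr1 and Asgr2, the subunits of the asialoglycoprotein receptor, made the difference and had HR peaks near the foot of the list, at ranks 8232 and 7291. Apoa2, Serpina1a, Serpina1e and Apoh were marked in neither. Stellate cell and leukocyte markers had no marked gene among 14 each in either condition. Of 15 macrophage markers only Cd68, of 14 endothelial markers only Lyve1 and of 10 cholangiocyte markers 1 were marked, each in both conditions of the full lists. The reference gives no strand for Lyve1. Its peaks lay near the gene end of lower coordinate alone, which may not be the start.

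The promoters below belong to genes on which the results turn. Calr, Dnajb9 and Chac1 are endoplasmic reticulum stress genes, Atf3, Fos and Ier5 are immediate early genes, and Rab21 lies in the second strongest of the HR-only peaks at a gene start. For these 7 genes an HR peak covered the start and no normoxia peak did. Tmem125 is the strongest normoxia-only case with a promoter in the reference. Each sequence is RefSeq (GRCm38.p6), 5′ to 3′, from 250 bases before the start to 50 bases from it on. Capitals mark CCAAT (the CCAAT box), TATAAA (the TATA box), CACGTG (the E-box, which contains ACGTG, the core of the hypoxia response element) and CCAAT followed after 9 bases of any kind by CCACG (the endoplasmic reticulum stress element, which contains a CCAAT box), each searched on both strands.
Calr, chr8:84846882-84847181, minus strand: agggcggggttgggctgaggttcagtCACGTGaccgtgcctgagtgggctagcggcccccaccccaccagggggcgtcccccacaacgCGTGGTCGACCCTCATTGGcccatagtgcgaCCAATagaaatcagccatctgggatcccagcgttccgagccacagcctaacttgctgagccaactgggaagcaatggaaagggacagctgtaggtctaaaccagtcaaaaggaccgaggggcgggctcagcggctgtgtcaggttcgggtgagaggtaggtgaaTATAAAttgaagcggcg
Dnajb9, chr12:44210019-44210318, minus strand: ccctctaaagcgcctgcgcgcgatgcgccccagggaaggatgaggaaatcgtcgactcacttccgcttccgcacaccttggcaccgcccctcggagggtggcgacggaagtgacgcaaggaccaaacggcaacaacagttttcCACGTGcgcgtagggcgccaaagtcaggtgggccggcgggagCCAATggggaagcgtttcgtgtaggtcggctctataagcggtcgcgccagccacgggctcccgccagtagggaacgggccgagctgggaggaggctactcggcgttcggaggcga
Chac1, chr2:119350992-119351291, plus strand: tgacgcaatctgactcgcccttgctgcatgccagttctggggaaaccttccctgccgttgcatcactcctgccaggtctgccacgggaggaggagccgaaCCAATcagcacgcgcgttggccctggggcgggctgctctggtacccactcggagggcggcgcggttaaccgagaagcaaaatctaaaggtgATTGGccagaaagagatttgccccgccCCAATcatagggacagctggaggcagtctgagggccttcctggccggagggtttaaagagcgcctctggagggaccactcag
Atf3, chr1:191183284-191183583, minus strand: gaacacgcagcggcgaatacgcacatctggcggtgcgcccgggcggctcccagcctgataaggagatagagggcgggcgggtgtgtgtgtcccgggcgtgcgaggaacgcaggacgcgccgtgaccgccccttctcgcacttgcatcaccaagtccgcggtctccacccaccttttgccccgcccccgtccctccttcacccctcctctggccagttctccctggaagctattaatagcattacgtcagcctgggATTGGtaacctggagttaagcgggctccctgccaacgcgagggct
Fos, chr12:85473640-85473939, plus strand: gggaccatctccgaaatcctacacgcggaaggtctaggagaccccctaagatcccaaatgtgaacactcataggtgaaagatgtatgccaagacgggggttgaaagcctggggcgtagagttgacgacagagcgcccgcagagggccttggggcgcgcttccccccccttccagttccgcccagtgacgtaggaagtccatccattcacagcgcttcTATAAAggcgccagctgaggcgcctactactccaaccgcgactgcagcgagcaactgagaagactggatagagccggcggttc
Ier5, chr1:155099587-155099886, minus strand: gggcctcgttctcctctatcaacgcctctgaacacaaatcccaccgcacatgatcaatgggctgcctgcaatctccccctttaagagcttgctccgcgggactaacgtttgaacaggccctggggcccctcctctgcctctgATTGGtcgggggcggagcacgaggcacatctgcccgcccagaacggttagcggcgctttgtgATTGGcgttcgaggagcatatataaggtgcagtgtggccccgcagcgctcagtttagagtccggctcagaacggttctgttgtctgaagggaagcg
Rab21, chr10:115315542-115315841, minus strand: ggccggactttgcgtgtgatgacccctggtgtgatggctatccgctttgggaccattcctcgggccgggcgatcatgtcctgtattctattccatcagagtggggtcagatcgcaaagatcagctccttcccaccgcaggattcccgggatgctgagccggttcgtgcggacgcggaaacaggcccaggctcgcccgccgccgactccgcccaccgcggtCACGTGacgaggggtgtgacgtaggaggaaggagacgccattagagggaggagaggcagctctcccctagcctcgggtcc
Tmem125, chr4:118543677-118543976, minus strand: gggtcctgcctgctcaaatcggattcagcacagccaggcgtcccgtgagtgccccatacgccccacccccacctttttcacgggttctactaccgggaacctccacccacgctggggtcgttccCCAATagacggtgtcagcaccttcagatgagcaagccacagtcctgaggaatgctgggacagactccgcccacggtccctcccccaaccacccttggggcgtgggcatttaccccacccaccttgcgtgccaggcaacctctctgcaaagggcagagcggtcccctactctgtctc
Calr, Dnajb9 and Rab21 each hold an E-box, and Fos holds a TATA box at base -33. Calr holds an endoplasmic reticulum stress element on the opposite strand, from base 89 to base 107 of the window. The TATAAA marked in Calr lies after the start, at base 34, and is not in the place of a TATA box. Among all 17492 promoters of the reference, 39.0% hold CCAAT, 13.3% TATAAA, 20.7% ACGTG, 7.90% CACGTG and 0.160% (28) the endoplasmic reticulum stress element. A match is a match of letters and says nothing about binding.

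The HR list was longer and its peaks were narrower. Its median width was 7410 bp (quartiles 4940 and 12210 bp), against 10340 bp (6860 and 16710 bp) in normoxia. The covered length differed less, with 87.5 Mb in HR and 81.5 Mb in normoxia, of which 66.5 Mb lay in both. This was 76.0% of the HR bases and 81.6% of the normoxia bases. The lowest total signal of a peak, a value of the authors, was 36822 in HR and 60122 in normoxia. The sources do not say how that signal was scaled, so signals were ranked within a list and never compared between lists. Sequencing depth is unknown, and its part in the number and width of the peaks was not tested.

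Of the 8252 HR peaks, 2478 (30.0%, 95% interval 29.0 to 31.0) shared no base with a normoxia peak and are called HR-only. Of the 5655 normoxia peaks, 225 (3.98%, 3.50 to 4.52) were normoxia-only. HR-only peaks were narrow, with a median of 4970 bp against 9030 bp for shared HR peaks, and normoxia-only peaks had a median of 8300 bp against 10460 bp for shared normoxia peaks. Both kinds sat low in their own list, at a median percentile of 19.7 for HR-only and 16.6 for normoxia-only peaks, where 100 is the strongest peak. HR-only peaks made up 0 of the strongest 825 HR peaks and 79.7% (76.8 to 82.3) of the weakest 826. The 0 allows a share of up to 0.364% if taken as 3 counts of the total, and up to 0.463% by the Wilson interval. Normoxia-only peaks made up 0 of the strongest 565 normoxia peaks (up to 0.531% by 3 counts, 0.675% by the Wilson interval) and 13.4% (10.9 to 16.5) of the weakest 566.

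**Figure D1:**
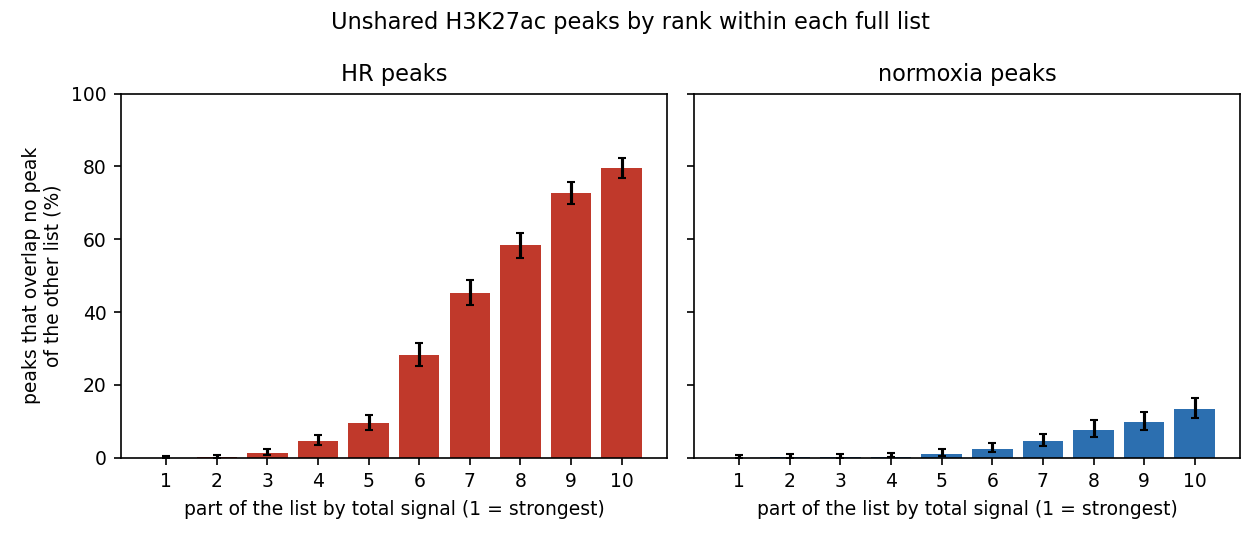
Share of H3K27ac peaks (vertical axis, %) that overlap no peak of the other list, in 10 equal parts of the full list from the strongest (1) to the weakest (10), for HR (left) and normoxia (right); bars are shares and lines 95% Wilson intervals. The share is 79.7% in the weakest part of the HR list and 13.4% in the weakest part of the normoxia list.

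To set lists of one length side by side, the HR list was reduced to its strongest 5655 peaks by total signal, which left out 2597. Then 668 HR peaks (11.8%) were HR-only and 882 normoxia peaks (15.6%, 14.7 to 16.6) were normoxia-only. The difference between the numbers of HR-only and normoxia-only peaks was 2253 for the full lists and -214 at equal length. With equal lengths this difference is set by how many peaks of a list met the same peak of the other, since 4987 HR peaks and 4773 normoxia peaks were shared, and it says nothing of sites gained or lost. Of the 882, 657 overlapped a weaker HR peak that the reduction had removed, and none of the 668 overlapped a normoxia peak, since the normoxia list has no weaker peaks in reserve. The position of the unshared peaks, described next, kept its direction at both lengths.

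HR-only peaks lay at gene starts more often than normoxia-only peaks did. In the full lists, 58.7% (56.8 to 60.6) of HR-only peaks and 18.7% (14.1 to 24.3) of normoxia-only peaks lay within 1 kb of the start of a coding gene, as did 54.6% of shared HR and 56.8% of shared normoxia peaks. At equal length the shares were 69.9% (66.3 to 73.3) of HR-only and 26.9% (24.1 to 29.9) of normoxia-only peaks, whereas 59.1% of shared HR and 60.6% of shared normoxia peaks lay at starts. Of normoxia-only peaks at equal length, 44.3% lay in gene bodies and 28.8% outside genes, against 21.0% and 9.13% of HR-only peaks. Read the other way, 13.7% of HR peaks at starts, 9.27% in bodies and 8.37% outside genes were HR-only. Of normoxia peaks, 7.58% at starts, 23.8% in bodies and 28.8% outside genes were normoxia-only. The intervals of HR-only and normoxia-only peaks did not meet at either length. When lists were reduced by the authors' maximum signal in place of the total, the shares at starts were 68.2% of HR-only and 40.1% of normoxia-only peaks.

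**Figure D2:**
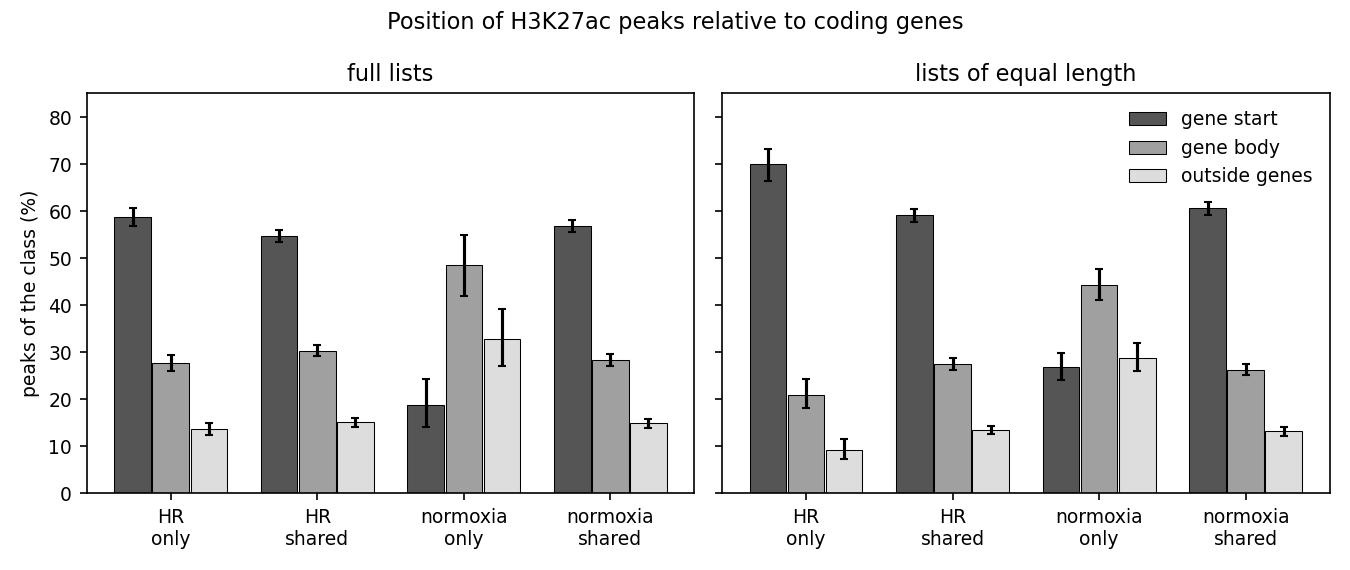
Position of peaks relative to coding genes in full lists (left) and in lists of equal length (right): bars give the share of each class (vertical axis, %) at a gene start (within 1 kb), elsewhere in a gene body, or outside genes, with 95% Wilson intervals. HR-only peaks are mostly at starts (58.7% and 69.9%), normoxia-only peaks mostly in bodies or outside genes.

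Where both conditions had a peak, their maxima mostly lay close together and the HR peak was usually the narrower. Of 4910 pairs in which each peak met only its partner, 3216 (65.5%) had the narrower peak in HR and 1679 the wider. The median ratio of widths, HR over normoxia, was 0.936 (quartiles 0.782 and 1.05), with 0.959 at gene starts, 0.895 in gene bodies and 0.908 outside genes. The positions of maximum signal lay within 1 kb of each other in 84.3% of pairs, at a median distance of 60 bp. Several HR peaks met the same normoxia peak at 396 normoxia peaks, and several normoxia peaks met the same HR peak at 77 HR peaks. Only 9.36% of HR-only peaks had a normoxia peak within 5 kb, and 50.8% had one within 50 kb.

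Across the 21887 coding genes of the RefSeq annotation, 25.3% were marked in HR and 17.6% in normoxia. In the full lists 1814 genes (8.29%) were marked in HR only, 3734 in both and 126 (0.576%) in normoxia only. At equal length 19.1% of genes were marked in HR and 17.6% in normoxia, with 682 genes (3.12%) in HR only, 3507 in both and 353 (1.61%) in normoxia only. The HR-only class of genes was the larger at both lengths. Of the 1814 HR-only genes, 1706 (94.0%) lay at an HR-only peak and the other 108 at the edge of a shared peak. Of the 126 normoxia-only genes, 42 lay at a normoxia-only peak. For 17492 genes the start was annotated, and for the other 4395, which had no strand, either end was taken. Lyve1 above and Egr1, Klf10, Per2, Apoc3, Gadd45gip1, Bag4, Lsm1, Phf3, Jade2, Pcdh12, Rnf14, Fads1, Gata6, Tbx3, Cyc1 and Ddb2 below are among these 4395.

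The strongest HR-only peak was at chr8:84830941-84849280 (mm10), 18340 bp wide and at rank 1370 of the HR list. Calr (the chaperone calreticulin) and Gadd45gip1 (a mitochondrial ribosomal protein) were among the genes whose starts it covered. The next at a gene start covered Rab21, a GTPase of early endosomes, over 21540 bp at rank 1604. Tmem250-ps, Tmem245 and the pair Bag4 (a cofactor of HSP70) and Lsm1 (a factor of mRNA decay) followed at ranks 1949, 2127 and 2325. The other 7 of the first 12 such peaks, at ranks 2370 to 2515, held N4bp2l2, Rpl27 with Ifi35, Stbd1 (a glycogen-binding protein), Psma7 with Ss18l1, Tnks2 (a tankyrase), Ghitm and Psmd6. Psma7 and Psmd6 are proteasome subunits, of the core and of the regulatory particle, and Rpl27 is a cytosolic ribosomal protein. All 12 peaks overlapped H3K9ac peaks in both conditions and an H3K27ac peak in KO HR, and 4 of them overlapped a FLAG-ACLY peak in HR.

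The strongest normoxia-only peak counted at a gene start was a domain of 54680 bp at chr1:30799331-30854010 and rank 1284 of the normoxia list. It lay over Phf3, whose protein binds RNA polymerase II. The reference gives no strand for Phf3, and the peak reached only the end at base 30802342, which may not be the start. This peak overlapped no H3K9ac peak in either condition. The next 7, at ranks 3275 to 3592, held Tmem125, Jade2 (a subunit of an acetyltransferase complex), Pcdh12 with Rnf14, Spag9, Snx7, Fads1 (the delta-5 fatty acid desaturase) and Tmem268. Of these 8 peaks, 4 overlapped an H3K9ac peak in HR and 3 in normoxia. The strongest normoxia-only peak of all was 1180 bp wide at rank 781, 64.6 kb from the nearest start on chromosome 1, with no H3K9ac or FLAG-ACLY peak.

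Genes of protein synthesis and protein breakdown were marked more often in HR at both lengths. All 26 cytosolic ribosomal protein genes listed were marked in HR, against 20 in normoxia, and at equal length 25 in HR against 20 in normoxia. Rpl5, Rpl8, Rpl27 and Rps24 were among those HR-only at both lengths, and Rps15 in the full lists alone. Of 26 proteasome subunits, 22 were marked in HR and 12 in normoxia, and at equal length 17 in HR and 12 in normoxia. Psma7 and Psmb2 and Psmb7 of the core, and Psmc1 and Psmd14 of the regulatory particle, were the HR-only members at both lengths. Psmb7 lay at the edge of a peak shared elsewhere. Against the 8.29% and 3.12% of all coding genes that were HR-only, these were 6 and 5 of 26 ribosomal protein genes and 10 and 5 of 26 proteasome genes. In all 26 ribosomal and all 26 proteasome genes an H3K9ac peak was present in HR, and in normoxia one was present in 26 ribosomal and 25 proteasome genes, so the H3K27ac difference stood over starts that carried the other mark in both conditions.

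Endoplasmic reticulum stress genes differed by the same members at both lengths. Of 20, 18 were marked in HR and 15 in normoxia, at both lengths, so 3 of 20 were HR-only, beside 8.29% of all coding genes in the full lists and 3.12% at equal length. These 3 were Calr at rank 1370, Dnajb9 (the chaperone ERdj4) at rank 4434 with a peak of 5720 bp, and Chac1 (which degrades glutathione) at rank 4543 with a peak of 6870 bp. All 3 carried H3K9ac in both conditions. The genes marked in both conditions also ranked higher in HR, as given further on.

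Genes of mitochondria were mostly added near the foot of the HR list. The counts that follow, here and for the other lists, stand beside 25.3% of all coding genes marked in HR and 17.6% in normoxia, and at equal length 19.1% in HR and 17.6% in normoxia. Of 24 nuclear genes of the respiratory chain, 16 were marked in HR and 7 in normoxia, but at equal length 10 in HR and 7 in normoxia. Sdha and Sdhc of complex II, Cox4i1 of complex IV and Atp5g1 of the ATP synthase were HR-only at both lengths, and Cyc1 of complex III was normoxia-only at both. Of 22 mitochondrial ribosomal protein genes, 8 were marked in HR and 3 in normoxia, and at equal length 4 in HR and 3 in normoxia. The acetyl-CoA supply genes showed the same dependence on length: 12 of 18 were marked in HR and 7 in normoxia, and 7 in each at equal length. Acly itself had a peak of 16330 bp in HR and of 16290 bp in normoxia. The 5 genes added in HR, at ranks 6560 to 8125, were Pdha1, Dlat and Dld of the pyruvate dehydrogenase complex, its kinase Pdk2, and Crat (carnitine acetyltransferase).

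Among genes that write, read or erase acetylation, 12 of 21 acetyltransferases and readers were marked in HR and 7 in normoxia, and at equal length 9 in HR and 7 in normoxia. Crebbp, which encodes CBP, had an HR peak of 28980 bp at rank 952, an edge of a site shared elsewhere whose normoxia peak did not reach its start. Kat7 and the bromodomain gene Brd7 were HR-only at both lengths, and Kat14 was normoxia-only at equal length. Of 22 deacetylases, 7 were marked in HR and 5 in normoxia, and 5 in each at equal length, which is near the share over all coding genes. Of 27 splicing factors, 24 were marked in HR and 19 in normoxia (21 and 19 at equal length), with Srsf1, Srsf6 and Hnrnph1 HR-only at both lengths. Of 26 DNA repair genes, 12 were marked in HR and 5 in normoxia (8 and 5 at equal length). Xrcc6 (Ku70 of end joining), Lig3, Ogg1 (which removes oxidized guanine) and Fen1 were HR-only at both lengths, and Ddb2, the sensor of ultraviolet damage, was normoxia-only at both. Of 25 cell cycle genes, 5 were marked in HR and 3 in normoxia at both lengths, and Cdk4 and Mcm7 made the difference.

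Stress-response lists other than the endoplasmic reticulum list differed less or depended on length, and in the full lists 8.29% of all coding genes were HR-only. Of 23 immediate early genes, 16 were marked in HR and 12 in normoxia (13 and 12 at equal length). Egr1 (rank 5042, 8570 bp) and Atf3 (rank 4854, 8770 bp) were HR-only at both lengths. Fos (rank 6215, 4370 bp) and Ier5 (rank 7431, 5000 bp) were HR-only in the full lists alone, and Klf10 was normoxia-only at equal length. Of 17 heat shock genes, 14 were marked in HR and 9 in normoxia, and at equal length 10 in HR and 9 in normoxia. Chordc1 was HR-only at both lengths, whereas Hspa1b, Hspb1, Dnajb1 and Stip1 had HR peaks at ranks 5917 to 7525 that the shorter list leaves out. The hypoxia-inducible factor targets did not differ in number: 11 of 23 were marked in each condition, and 10 in HR against 11 in normoxia at equal length. Ldha, the lactate dehydrogenase subunit, was the difference, with a peak of 6140 bp at rank 5770 in HR and of 15040 bp at rank 2190 in normoxia. An H3K9ac peak was present at 17 of these 23 genes in HR and 12 in normoxia, from lists of 7593 and 6513 peaks. Of 18 NF-kB targets, 12 were marked in HR and 8 in normoxia, and 8 in each at equal length, with Nfkbiz, Nfkb2, Relb and Cxcl10 at ranks 6442 to 8229. Of 20 p53 targets, 14 were marked in HR and 11 in normoxia, and 11 in each at equal length, with Trp53 itself and Aen HR-only at both lengths and Gadd45b and Sesn1 normoxia-only at equal length. Of 20 NRF2 targets, 19 were marked in HR and 18 in normoxia, and 18 in each at equal length.

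The remaining lists held smaller differences, again beside 8.29% of all coding genes HR-only in the full lists and 3.12% at equal length. Of 27 autophagy and lysosome genes, 20 were marked in HR and 14 in normoxia (16 in HR and 14 in normoxia at equal length), with Gabarapl2, an ATG8 protein, and Atp6v1h of the proton pump HR-only at both lengths. Of 19 integrated stress response genes, 9 were marked in HR and 6 in normoxia (7 in HR and 6 in normoxia at equal length), and Slc3a2, the heavy chain of amino acid transporters, was HR-only at both. Of 19 TGF-beta and SMAD genes, 10 were marked in HR and 7 in normoxia (8 in HR and 7 in normoxia at equal length), with Smad4 HR-only at both. The clock list had 10 of 19 genes in HR and 9 in normoxia, and 9 in each at equal length. Of 26 cell death genes, 10 were marked in HR and 8 in normoxia, and 7 in HR against 8 in normoxia at equal length. YAP and TEAD targets numbered 8 of 17 in HR and 7 in normoxia, and 5 in HR against 7 in normoxia at equal length. Replication-dependent histone genes numbered 7 of 15 in each condition, and 6 in HR against 7 in normoxia at equal length.

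Liver transcription factors went the other way at equal length. Of 26, 20 were marked in each condition in the full lists, and 16 in HR against 20 in normoxia at equal length. Ppara, Gata6 and Tbx3 were among those with an HR peak only below the first 5655, these 3 at ranks 5889 to 6332. Ppara, the nuclear receptor for fatty acids, had a peak of 8340 bp at rank 6275 in HR and of 26670 bp at rank 1349 in normoxia.

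**Figure D3:**
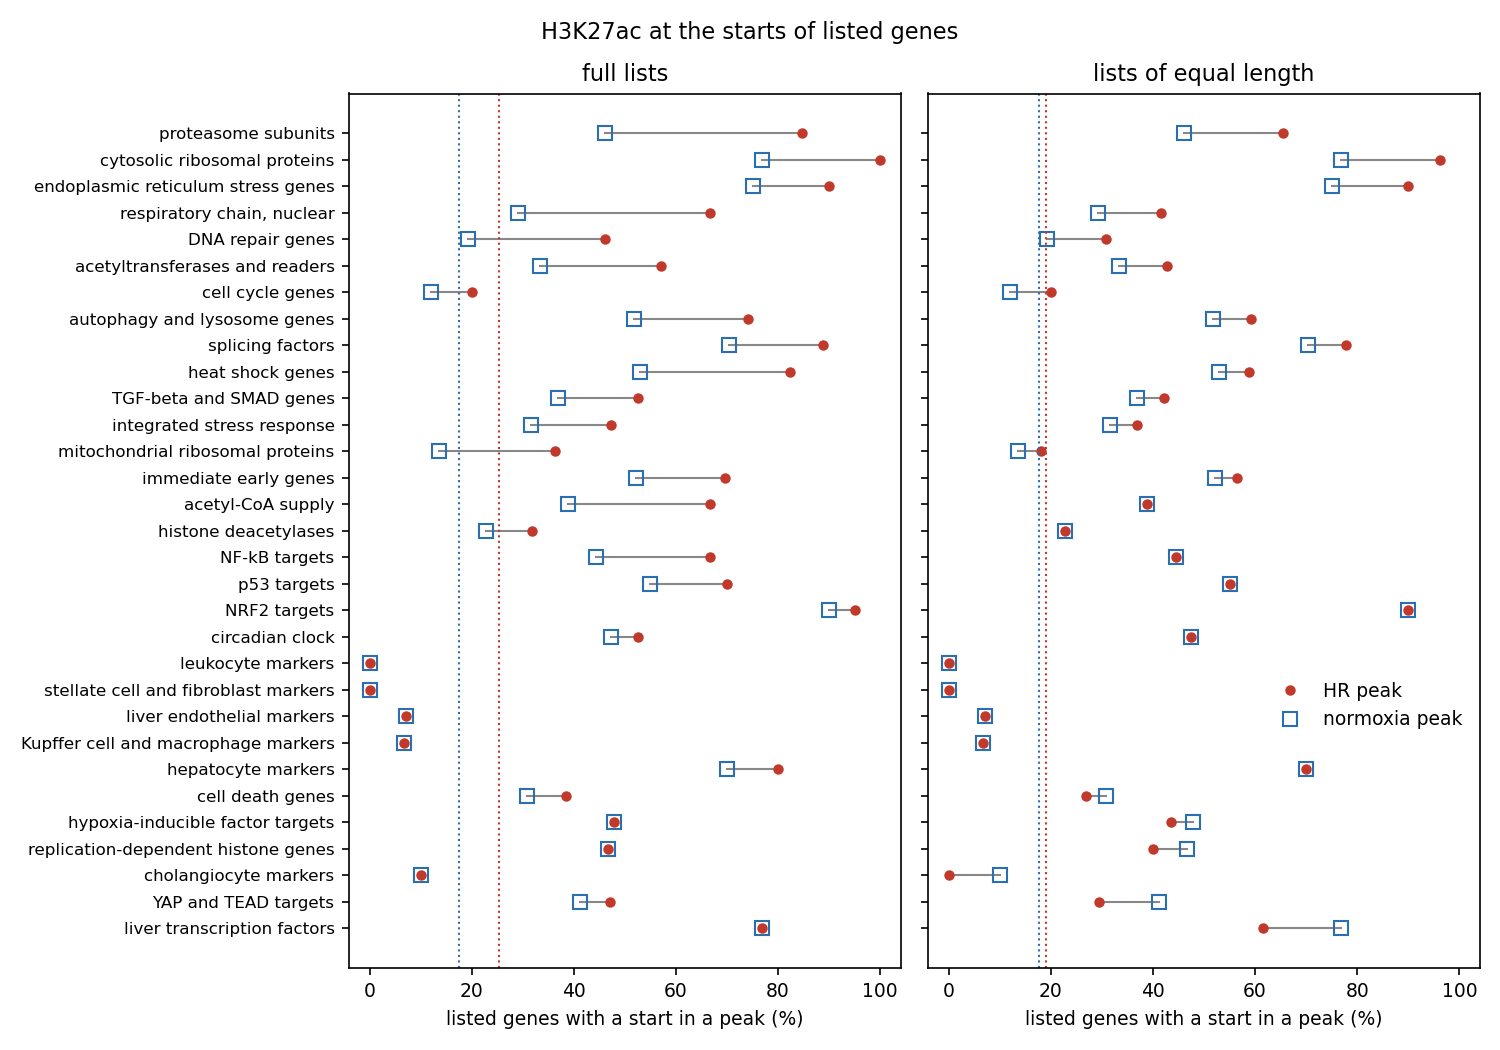
Share of the genes of each list with a start in a peak (horizontal axis, %) for HR (filled circles) and normoxia (open squares), in full lists (left) and lists of equal length (right); dotted lines give the same share over all 21887 coding genes. Proteasome, ribosomal and endoplasmic reticulum stress genes lie higher in HR in both panels, acetyl-CoA supply and NF-kB genes in the left panel alone, and liver transcription factors lower in HR in the right panel.

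Genes marked in both conditions were compared by the percentile of the strongest peak at their start in lists of equal length, where 100 is the strongest peak. Over all 3507 such genes the median change, HR minus normoxia, was 2.83 points (quartiles -3.31 and 11.4), with 288 genes higher by at least 25 points and 213 lower by at least 25. Against that background the hepatocyte markers had lower percentiles in HR: the median change of 14 was -11.4 points, and 2 were higher. Fga and Fgb, of the fibrinogen cluster, differed by -59.6 and -41.5 points. Tat (tyrosine aminotransferase) differed by -40.7 points, with a percentile of 25.7 in HR and 66.4 in normoxia. Alb stood at percentile 30.3 in HR and 49.2 in normoxia, a change of -18.9 points. Apob (+13.6) and Ambp (+0.81) were the 2 with a higher percentile in HR at equal length. The size of the list's change and the sign at single markers depended on the length of the lists. In the full lists Alb stood at 52.2 in HR and 49.2 in normoxia, Hpx at 81.0 and 77.0, and Rbp4 at 71.3 and 70.1. Tat (49.1 in HR, 66.4 in normoxia), Fga (54.4 and 93.0) and Fgb (66.8 and 93.0) stayed lower in HR there. So did Tf (81.9 and 94.7) and Apoa1 with Apoc3 (91.8 and 98.7). Ttr (59.1 and 61.3), Ahsg (89.8 and 92.2) and Cps1 (97.2 and 97.8) were only slightly lower.

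The domains at these genes were narrower in HR. The median peak width of the 14 hepatocyte markers was 13035 bp in HR and 23605 bp in normoxia, against 11340 bp and 12390 bp for all 3507 genes. The HR peak was the narrower at 12 of 14 markers and at 63.3% of all 3507 genes. HR peaks covered a median of 70.1% of the normoxia peak at a marker (48.1% to 100%) and 91.9% over all genes. The normoxia domain of 40760 bp that covers both Fga and Fgb was met by 2 HR peaks, of 11930 bp at Fga and 9660 bp at Fgb, which together covered 52.97% of it. The 52530 bp normoxia domain of Apoa1 and Apoc3 had an HR peak of 28320 bp at the starts and 82.4% covered in all. At Alb an HR peak of 9570 bp covered 57.3% of a normoxia peak of 16710 bp. When peaks closer than 5 kb were joined before ranking, the median change of the 14 was -6.58 points and 3 were higher. Single genes moved further: Alb was at -69.2 points after joining, and Rbp4, the retinol carrier, at 0.77 after joining and -12.01 before it.

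Among liver regulators Prox1 had the lowest change of percentile. Prox1, a homeobox factor of hepatocytes, had an HR peak of 11450 bp and a normoxia peak of 49510 bp, with a percentile of 28.5 in HR and 90.7 in normoxia. HR peaks covered 40.8% of that domain, and the change was -62.1 points as deposited and -62.2 after joining. Per2, a repressor of the circadian clock, differed by -28.7 points but by -2.29 after joining. Clock, an activator of the same oscillator, stood at percentile 71.0 with 22360 bp in HR and at 25.3 with 4870 bp in normoxia. Foxa2 (98.5 in HR, 98.4 in normoxia), Nr1h4 (98.7 in HR, 98.9 in normoxia) and Rxra (99.6 in HR, 99.1 in normoxia) were near the top of both lists. The liver factors as a list had a median change of 0.29 points, with 9 of 16 higher, where the 16 are those whose HR peak was among the first 5655, so the factors left out by that limit do not enter it.

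At equal length NF-kB targets also had lower percentiles in HR, with a median change of -20.4 points, 1 of 8 higher, and -19.9 after joining. The sign at single targets depended on the length of the lists here too. In the full lists Nfkb1, Rela, Tnfaip3 and Birc3 stood higher in HR, and Nfkbia, Cxcl1, Ccl2 and Sod2 lower. The medians hide shifts of single genes, since Nfkb1 was at -9.57 points at equal length and at -68.8 after joining. At equal length Nfkbia, the inhibitor that ends the NF-kB response, stood at 30.3 in HR and 59.3 in normoxia. The chemokine gene Ccl2 stood at 28.7 in HR and 64.8 in normoxia, and Sod2, the mitochondrial superoxide dismutase, at 21.1 in HR and 49.7 in normoxia. Cxcl1 differed by -84.3 points, but 3 HR peaks met its normoxia domain of 31100 bp and covered 86.8% of it, and the change was -1.41 after joining.

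In the other direction, the NRF2 targets, which serve glutathione, thioredoxin and NADPH supply, were higher in HR at 16 of 18 genes, with a median change of 4.74 points, which lies within the quartiles over all genes. Of all 3507 genes, 2232 (63.6%) were higher in HR, and the counts of this paragraph stand beside that share. Gsta1, a glutathione transferase, stood at percentile 71.0 in HR and 19.4 in normoxia, and Hmox1, heme oxygenase, at 83.4 in HR and 56.3 in normoxia. Me1 was an exception at -22.5 points, with HR peaks covering 27.2% of its 20000 bp normoxia peak. Splicing factors had a median change of 12.02 points (14 of 18 higher), with Rbm25 at 51.1 in HR and 4.07 in normoxia. Ribosomal protein genes had a median of 8.84 points (17 of 20 higher), led by Rplp2 at 63.0 in HR and 22.8 in normoxia. Endoplasmic reticulum stress genes had a median of 7.18 points (13 of 15 higher), with Canx at 67.8 in HR and 41.5 in normoxia and Hspa5, the chaperone BiP, at 82.4 in HR and 60.2 in normoxia. All 6 integrated stress response genes were higher, with a median of 13.7 points, and 8 of 9 p53 targets were, with a median of 16.0 as deposited and 8.26 after joining (8 of 10). Gadd45b and Sesn1, also p53 targets with a normoxia peak, had their HR peaks at ranks 6266 and 8186, outside the first 5655, and do not enter these medians. Of the p53 targets, Gadd45a stood at 71.8 in HR and 41.2 in normoxia, and Cdkn1a, the cell cycle inhibitor p21, at 47.2 in HR and 22.3 in normoxia.

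**Figure D4:**
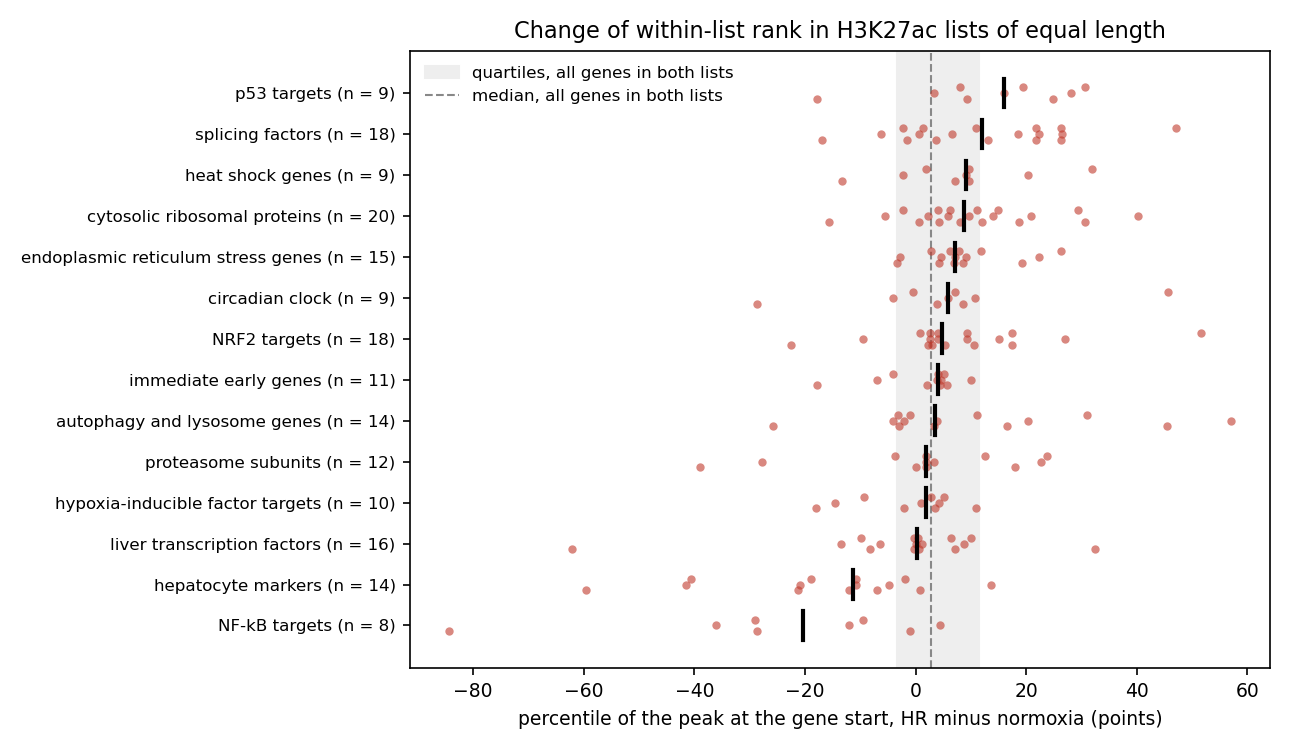
Percentile of the strongest peak at the gene start, HR minus normoxia (horizontal axis, points), in lists of equal length, for genes of lists with at least 8 members in both; each point is a gene, black bars are list medians, the dashed line and the grey band are the median (2.83) and quartiles over 3507 genes. Hepatocyte markers (-11.4) and NF-kB targets (-20.4) lie to the left, splicing factors (12.02) and p53 targets (16.0, but 8.26 after peaks closer than 5 kb were joined) to the right.

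The genes with the largest changes over the whole genome show what the percentile measures. The 6 largest gains were Rab37 and Slc9a3r1 (1 peak, 76.4 points), Psme2, an activator of the proteasome, and Rnf31, a subunit of the linear ubiquitin ligase (1 peak, 72.9), Abcf3 (69.2) and Pex26, of peroxisomal import (67.7). At each the HR peak was the wider, as at Psme2 with 16210 bp in HR and 4110 bp in normoxia. The gains stayed at 65.6 to 72.6 points after joining except at Pex26, where 2.50 was left. The 6 largest losses were Klkb1, which encodes plasma prekallikrein (-93.2), Ppp2r5e (-93.0), Slc7a2, a cationic amino acid transporter (-84.5), Cxcl1 (-84.3), Letm2 (-81.6) and Srp72, of the signal recognition particle (-78.8). In each, 2 or 3 HR peaks met a normoxia domain of 27940 to 71100 bp. After joining, the change stayed at -91.8 for Ppp2r5e and -74.9 for Srp72. It moved to -3.25 at Klkb1, -11.3 at Slc7a2, -1.41 at Cxcl1 and 4.55 at Letm2. HR peaks still covered 73.4% of the normoxia domain at Ppp2r5e and 73.0% at Srp72. Most of that covered part lay outside the ranked HR peak at the start, which was 4800 bp at Ppp2r5e and 4660 bp at Srp72.

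Overlap with the other deposited lists differed between HR-only and normoxia-only peaks. For H3K9ac and FLAG-ACLY the gap at equal length was smaller among peaks at the same kind of position. At equal length, 71.9% (68.3 to 75.1) of HR-only peaks overlapped an H3K9ac peak of WT HR and 62.7% (59.0 to 66.3) one of WT normoxia. Of normoxia-only peaks, 21.0% overlapped H3K9ac of HR and 26.3% that of normoxia. Of shared HR peaks, 75.3% overlapped H3K9ac of HR and 76.4% that of normoxia. At gene starts 96.1% of HR-only peaks overlapped H3K9ac in HR and 85.2% in normoxia, so most of the starts where H3K27ac was listed in HR alone carried H3K9ac in both conditions. Of normoxia-only peaks at starts, 64.1% overlapped H3K9ac in HR and 66.7% in normoxia. In gene bodies H3K9ac of HR met 14.3% of HR-only and 5.63% of normoxia-only peaks, and H3K9ac of normoxia 11.4% and 12.3%. Outside genes these shares were 18.0% and 4.33% for H3K9ac of HR, and 8.20% and 10.2% for H3K9ac of normoxia. Of HR-only peaks at all positions, 9.88% overlapped H3K9ac in HR alone and 0.749% in normoxia alone. FLAG-ACLY peaks of WT HR were met by 20.4% (17.5 to 23.6) of HR-only, 9.64% of normoxia-only and 23.4% of shared HR peaks. By position the classes were closer: at gene starts 26.3% (22.5 to 30.5) of HR-only and 19.4% (14.9 to 24.9) of normoxia-only peaks met one, in gene bodies 7 of 140 HR-only and 16 of 391 normoxia-only, and outside genes 9.84% of HR-only and 9.06% of normoxia-only. In the full lists the order outside genes was the other way, with 7.42% of HR-only and 13.5% of normoxia-only peaks. H3K27ac peaks of KO HR were met by 99.0% of HR-only and 91.2% of normoxia-only peaks. The KO list holds 14418 peaks and was made in another way, with 0.943% of its peaks on the 10 bp grid that holds all peaks of both WT lists, and in the full lists only 20.1% of HR-only peaks met one of its strongest 5655. Likewise, with each H3K9ac list reduced to 5655 peaks, the shares of all 2478 HR-only peaks were 45.2% in HR and 39.1% in normoxia, against 55.8% and 46.5% with those lists whole.

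**Figure D5:**
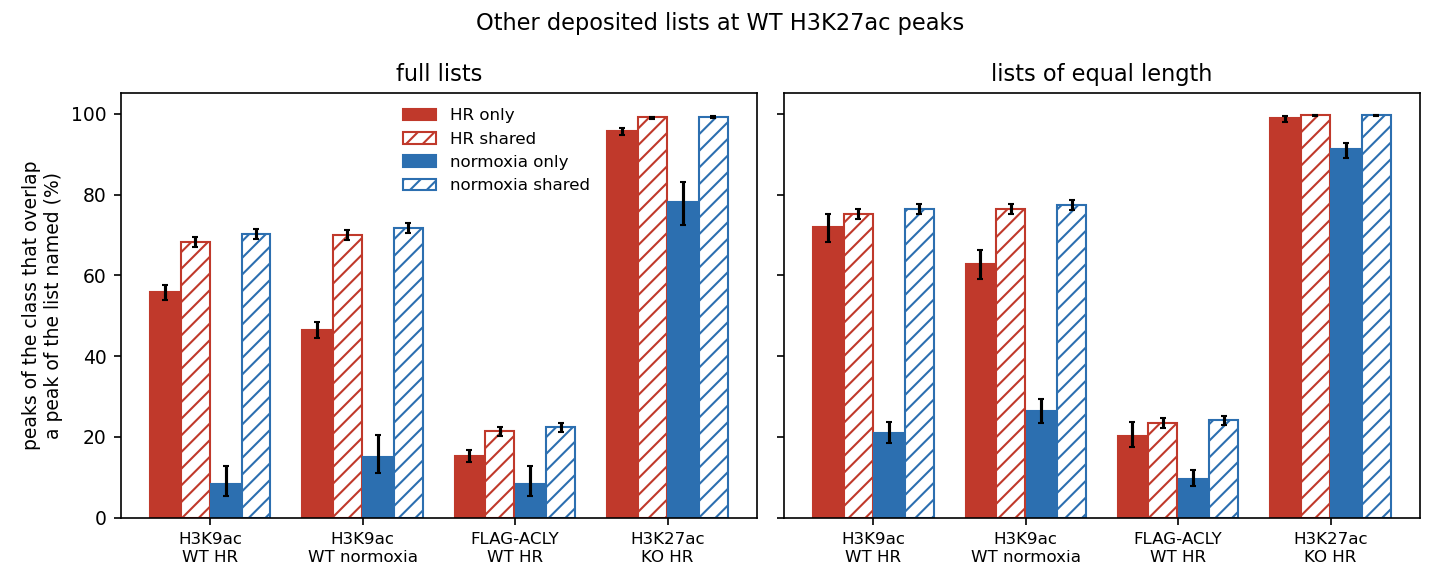
Share of WT H3K27ac peaks of each class (vertical axis, %) that overlap a peak of H3K9ac in WT HR or WT normoxia, FLAG-ACLY in WT HR, or H3K27ac in KO HR, in full lists (left) and lists of equal length (right), with 95% Wilson intervals. Normoxia-only peaks stand lowest in each group, at 21.0% for H3K9ac of HR at equal length against 71.9% of HR-only peaks. Peaks are not split by position here.

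The promoters of HR-only genes were CpG-rich. At equal length 82.4% of 557 HR-only promoters had an observed CpG number of at least 0.6 of that from their base composition, against 76.3% of 2828 promoters marked in both, 60.4% of 265 normoxia-only ones and 41.0% of those marked in neither. The median number of CpGs in the 300 bases was 24 in HR-only promoters, 23 in those marked in both, 17 in normoxia-only ones and 9 in those marked in neither. CCGGAAG, a site of ETS factors, was in 25.9% (22.4 to 29.6) of HR-only, 18.2% (16.9 to 19.7) of both, 15.5% of normoxia-only and 11.9% of all promoters. GCGC followed after 2 bases by GCGC, the site of NRF1, a regulator of mitochondrial genes, was in 18.0% of HR-only, 15.3% of both, 9.81% of normoxia-only and 8.80% of all promoters. CACGTG, the E-box that Calr, Dnajb9 and Rab21 hold, was in 78 of the 557 HR-only promoters, 9.83% of both, 10.2% of normoxia-only and 7.90% of all promoters. ACGTG, the hypoxia response core it contains, was in 30.9% (27.2 to 34.8) of HR-only and 27.7% (26.1 to 29.4) of both. TATAAA was rarer in marked promoters, with 6.10% of HR-only, 7.28% of both and 9.06% of normoxia-only against 13.3% of all. None of these shares was corrected for base composition.

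Hairpins of miRNAs were counted by the peaks that cover them. Of 1005 hairpins, 31 lay in an HR peak only, 96 in both and 13 in a normoxia peak only, and at equal length 19 in HR only, 96 in both and 13 in normoxia only. The sequences shown are RefSeq mature forms of clusters that differ between the conditions, chosen after their states were seen, with the seed (bases 2 to 8) in capitals.
miR-106b-5p, chr5:138165787-138165807, minus strand: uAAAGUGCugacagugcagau
miR-93-5p, chr5:138165574-138165596, minus strand: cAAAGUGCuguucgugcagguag
miR-25-3p, chr5:138165332-138165353, minus strand: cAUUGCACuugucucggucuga
miR-210-3p, chr7:141221407-141221428, minus strand: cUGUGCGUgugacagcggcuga
let-7c-5p, chr15:85706616-85706637, plus strand: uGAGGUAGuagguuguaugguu
let-7b-5p, chr15:85707325-85707346, plus strand: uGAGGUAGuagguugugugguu
miR-106b-5p and miR-93-5p share the seed AAAGUGC, and both let-7 forms share GAGGUAG. Mir106b, Mir93 and Mir25 lie in Mcm7, whose HR peak at chr5:138159731-138173320 (13590 bp, rank 3588) was HR-only at both lengths. Mir210, a target of hypoxia-inducible factor, lay in an HR peak of 7980 bp at rank 5909, HR-only in the full list and left out of the shorter one. Mirlet7c-2 and Mirlet7b lay in a normoxia peak of 16700 bp at chr15:85693741-85710440, rank 4232, with no HR peak over them at either length. All of these peaks overlapped H3K9ac in both conditions, and the abundance of the miRNAs was not measured.

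Chromosome X stood apart from the autosomes in the HR peaks of the full lists. Of its 113 HR peaks, 64 (56.6%, 47.4 to 65.4) were HR-only, against 26.4% to 35.2% on the autosomes. At equal length 12 of 52 were (23.1%, 13.7 to 36.1), against 8.21% to 14.7%, and that interval meets the autosomal shares. Of its 51 normoxia peaks in the full lists, 4 (7.84%, 3.09 to 18.5) were normoxia-only, against 1.69% to 7.58% on the autosomes. Without chromosomes X and Y, 29.7% of all HR peaks and 3.95% of normoxia peaks were unshared.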

How the data were processed

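The files used are the peak lists that the authors deposited, with a total signal and a maximum signal for each peak. Their coordinates are on mm10, per the submitters' processing notes. The aligner, the peak caller and the signal's normalization are not given in the sources used here, and neither is sequencing depth. Lists hold 1 library each. A list was ranked by total signal, overlap meant at least 1 shared base, and lists of equal length were the strongest 5655 peaks of each. Genes were the 21887 coding genes of RefSeq GRCm38.p6. A gene was marked where a peak lay within 1 kb of its start. Named genes were those at the first 12 HR-only and first 8 normoxia-only peaks at gene starts, the 6 largest gains and losses of percentile, and list members whose state differed. Where a peak held several starts, up to 3 were named. Dnajb9, Chac1 and the miRNAs, and members of lists named for their change of percentile, were chosen after their values were seen. Some genes that this rule names are not reported here. The members and lists were chosen with earlier results of these data known. The interval code was tested on simulated peaks. Python 3.11.15 was used with scipy 1.17.1 and matplotlib 3.10.9. Groups came from the sample titles. The RNA-seq, ACLY normoxia and KO H3K9ac files were not used here. Alternatives are in the closing section.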

Additional observations from a re-analysis of the deposited data

How the results depend on the processing

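The number of HR peaks exceeded that of normoxia peaks with peaks closer than 5 kb joined as well (7484 and 5319). Median widths were then 7660 bp in HR and 10720 bp in normoxia, and the HR list reduced to 5655 peaks by total signal had a median of 9450 bp. The HR-only share of HR peaks was 31.9% with an overlap of at least 50% of the peak, 11.8% and 24.7% in lists of equal length by total and by maximum signal, and 31.8% in the strongest 50% of each list. The normoxia-only share of normoxia peaks under the same alternatives was 9.02%, 15.6%, 26.3% and 6.23%. The number of HR-only minus normoxia-only peaks was 2253 in the full lists and 1136 in the strongest 50%. It was -214 by total and -94 by maximum signal at equal length, where it equals the difference in shared peaks and is no change of direction in sites. HR-only peaks at gene starts were 61.9% with a 5 kb window, 69.9% and 68.2% at equal length by total and by maximum signal, and 48.4% with annotated starts alone. Normoxia-only peaks at gene starts were 26.9% and 40.1% at equal length and 11.6% with annotated starts alone. HR-only genes numbered 682 at equal length by total signal and 1190 in the strongest 50%, and normoxia-only genes 353 and 743 at equal length by total and by maximum signal and 79 with annotated starts alone. HR-only genes outnumbered normoxia-only genes under each of these alternatives. Of HR-only peaks, 52.2% overlapped H3K9ac of HR, 44.5% H3K9ac of normoxia, 2.74% FLAG-ACLY and 77.8% KO H3K27ac by at least 50% of the peak. At equal length these shares were 71.9%, 62.7%, 20.4% and 99.0%. With the other list reduced to 5655 peaks they were 45.2% for H3K9ac of HR, 39.1% for H3K9ac of normoxia and 20.1% for KO H3K27ac. The median change of percentile at hepatocyte markers was -6.58 points after joining. The cause of these movements was not tested, beyond the shorter lists themselves and the widths of FLAG-ACLY peaks. The alternatives with annotated starts alone, without chromosomes X and Y, with the other lists reduced and with joining before ranking, and the maximum-signal alternative at gene starts, were chosen after seeing the data.

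No paired analysis was possible because each condition has 1 H3K27ac library and no result comes from a test. The labels do not give the animals behind a library, and a difference between libraries cannot be told apart from one between conditions. The peak threshold, the depth and the scale of the signal are unknown for both lists, and their part in the results was not tested. A gene without a peak is one with no peak in the list, which is not the same as one without acetylation. List members share peaks in places, as Fga with Fgb and Apoa1 with Apoc3 do, and are not independent.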
